A study of Homo sapiens with 8 samples.

Results

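Small nuclear RNAs (snRNAs) and small nucleolar RNAs (snoRNAs) were described in ZR-75-1, an estrogen receptor positive cell line derived from a human breast cancer. The rows studied were those with the biotype snRNA or snoRNA in the deposited expression table and a value above 0 in all 8 libraries. The members were thus chosen by their measured RPKM in both groups, which kept 17 of 3373 snRNA and snoRNA rows in a table of 57773 genes. Of the 17 rows, 15 were snRNAs and 2 were snoRNAs, so the set is mainly one of spliceosomal RNAs and their gene copies. It held 5 rows of the U1 family, 3 of U2, 2 of U4, 4 of U5 and 1 of U6atac, together with the H/ACA box row SNORA31_20 and the U3 family row U3_55. No row of these biotypes named SNORD (C/D box) or SCARNA (Cajal body) was above 0 in every library.

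Cells had been kept in steroid-depleted medium for 72 h. They were then exposed for 4 h to 10 nM estradiol (E2) together with 10 nM of the androgen dihydrotestosterone (DHT), the E2+DHT group, or to 10 nM E2 by itself, the E2 group. Each group had 4 libraries of total RNA, and there was no arm without hormone. Title and library name disagree on the treatment in 4 of 8 records. The groups here follow the library name, which heads the column of values. Taken record by record, the passages are 9 and 11 for the E2+DHT libraries and 8 and 10 for the E2 libraries, and passage and treatment then cannot be told apart. By the titles each group would hold passages 8, 9, 10 and 11, and which reading is right is not stated. Separate cultures are not stated for the replicates, and libraries of a group share passages. Beyond differences between passages, the p-values may therefore measure only technical spread.

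The spliceosome removes introns from pre-mRNA, and its catalytic machinery is built on snRNAs. U1 pairs with the 5′ splice site, U2 pairs with the branch point, and U4 carries U6 into the complex as a U4/U6·U5 tri-snRNP in which U5 holds the exon ends. A minor spliceosome with U11, U12, U4atac and U6atac serves a rare class of introns. Most snoRNAs guide chemical modification of ribosomal RNA, C/D box RNAs for 2′-O-methylation and H/ACA box RNAs for pseudouridylation, while U3 takes part in cleavage of the ribosomal RNA precursor. Many human snoRNAs are cut from introns of host genes, whereas most snRNAs have promoters of their own.

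The sequences below show the pair that held most of the reads and high rows of other families, beside canonical rows listed at 0 in all 8 libraries. They are GENCODE release 29 transcripts, matched by Ensembl gene ID and equal length, which was possible for 14 of the 17 rows (all but RNVU1-13, RNVU1-19 and U3_55). Each is written 5′ to 3′ as DNA on the gene's own strand. The U4 pair is given first, with capitals at the letters ATTTNTG, a match to the kind of uridine-rich site that Sm proteins bind. These letters were found in 27.2% of the 1900 snRNA transcripts searched, on the transcript strand, and in 16.1% on the opposite strand.
RNU4-2: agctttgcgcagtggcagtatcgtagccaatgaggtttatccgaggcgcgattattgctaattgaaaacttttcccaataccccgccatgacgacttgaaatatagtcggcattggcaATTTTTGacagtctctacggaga
RNU4-1: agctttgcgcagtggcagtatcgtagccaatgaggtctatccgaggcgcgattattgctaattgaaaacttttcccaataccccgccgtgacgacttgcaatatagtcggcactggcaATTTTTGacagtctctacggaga

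The highest U1 and U2 rows of the set are shown with a canonical counterpart that was listed at 0. Capitals mark the U1 letters ACTTACCTG, which pair with the 5′ splice site and stood in 2.63% of snRNA transcripts (0 on the opposite strand), the U2 letters GTAGTA, which pair with the branch point and stood in 3.58% (0.579% on the opposite strand), and the Sm-type letters ATTTNTG. RNU2-61P has no match to GTAGTA.
RNVU1-14: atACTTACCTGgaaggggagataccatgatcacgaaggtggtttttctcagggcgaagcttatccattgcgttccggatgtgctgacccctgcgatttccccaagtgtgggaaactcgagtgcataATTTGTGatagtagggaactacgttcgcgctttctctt
RNU1-1: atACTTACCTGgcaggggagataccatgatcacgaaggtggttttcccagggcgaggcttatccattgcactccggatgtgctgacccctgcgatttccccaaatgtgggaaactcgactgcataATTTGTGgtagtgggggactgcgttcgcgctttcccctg
RNU2-61P: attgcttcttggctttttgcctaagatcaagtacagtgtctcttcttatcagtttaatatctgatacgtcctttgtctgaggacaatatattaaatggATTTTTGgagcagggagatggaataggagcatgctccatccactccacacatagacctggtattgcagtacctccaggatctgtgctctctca
RNU2-2P: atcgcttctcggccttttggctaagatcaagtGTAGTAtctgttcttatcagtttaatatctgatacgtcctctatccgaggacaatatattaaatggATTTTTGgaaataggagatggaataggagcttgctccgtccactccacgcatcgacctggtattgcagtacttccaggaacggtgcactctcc

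The minor spliceosomal U6atac and the H/ACA row are given without capitals. They are the only members of their kinds in the set.
RNU6ATAC: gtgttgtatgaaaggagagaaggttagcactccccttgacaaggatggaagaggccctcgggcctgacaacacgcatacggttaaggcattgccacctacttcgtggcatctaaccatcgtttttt
SNORA31_20: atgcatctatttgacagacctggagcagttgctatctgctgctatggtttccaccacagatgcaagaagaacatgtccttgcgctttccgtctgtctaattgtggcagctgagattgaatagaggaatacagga

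Levels are given in RPKM, reads scaled by exon length and library size, as the authors deposited them. Because each value moves in steps of 1 read, the whole reads behind it could be recovered. Library sizes ran from 19599217 to 34616639 reads in E2+DHT and from 19955045 to 31913885 reads in E2. Mitochondrial genes took 24.7% to 27.7% of the reads in E2+DHT and 23.0% to 27.6% in E2. The androgen label check held, since the summed RPKM of FKBP5, C1orf116, CLDN8 and UGDH was 35.0 to 45.0 in E2+DHT, against 13.1 to 15.0 in E2, and all 4 genes rose (limma, adjusted p at most 0.00117). All 10 luminal breast markers were above 0 in every library, with sums of 2574 to 2932 RPKM in E2+DHT and 2197 to 2948 RPKM in E2. The 9 basal and mesenchymal markers summed to 0.940 to 1.33 RPKM in E2+DHT and 0.857 to 1.10 RPKM in E2, mostly from COL1A1, while KRT5, KRT14, COL1A2 and COL3A1 were at 0 in 5 of 8 libraries each. The 6 immune and endothelial markers measured summed to 0.471 to 0.855 RPKM in E2+DHT and 0.519 to 0.589 RPKM in E2. In RNA from a whole culture, fewer cells with an RNA and less of that RNA per cell cannot be told apart.

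None of the 17 small RNAs passed the test between E2+DHT and E2. Fold changes are on the scale log2(RPKM + 0.5), E2+DHT over E2, and were tested with limma across all 11375 genes with a mean RPKM of at least 0.5, at a threshold of 0.05 after Benjamini-Hochberg adjustment. All 17 rows passed that filter and 0 passed the threshold (lowest adjusted p = 0.985), where 0.185% of all tested genes did, 0.176% of them higher and 0.00879% lower in E2+DHT. No row had its 4 values in one group all above the 4 in the other, against 3.4% of tested genes. At an unadjusted p under 0.05 there was 1 row, SNORA31_20, lower in E2+DHT, where 1.59% of all tested genes were lower, 2.87% were higher and 4.47% passed in either direction. Of the 17 fold changes 11 were negative (43.7% of all tested genes were), and their median was -0.22, against 0.01 over all tested genes. With libraries scaled to the same RPKM sum, 13 of the 17 and 69.9% of all tested genes were negative, with medians of -0.29 and -0.05. Independence of the 17 rows was not tested, and some varied together, such as RNU4-2 and RNU4-1. The median deviation of the set in single libraries, from its mean, ran from -0.25 to 0.36 in E2+DHT and from -0.17 to 0.25 in E2, with a within-group SD of 0.23, about as large as that median. The 17 rows together held 93.5, 106, 126 and 82.0 per 1000000 reads of the library in E2+DHT replicates 1 to 4 and 135, 98.4, 86.6 and 135 in E2 replicates 1 to 4. The highest 2 and the second lowest were E2 libraries, and the groups overlapped. Of their 23546 reads, 83.0% lay in the U4 and U5 rows and 38.9% in RNU4-2.

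**Figure D1:**
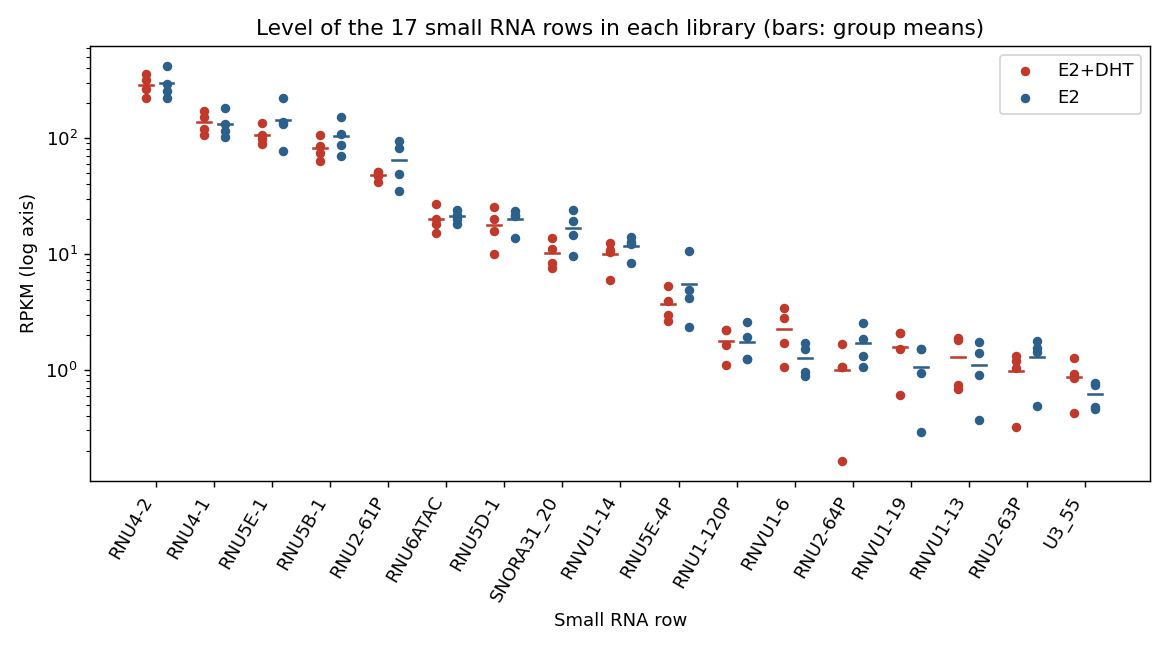
RPKM (log axis) of each of the 17 rows in every library, E2+DHT in red on the left and E2 in blue on the right of each pair (points, 4 libraries each; bars, group means). Levels run from RNU4-2, above 220 RPKM in all libraries, to rows near 1 RPKM, and the points of both groups overlap in every row.

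The U4 RNAs, which keep U6 inactive until the spliceosome is activated, held the highest row of the set, RNU4-2, and the row with the next highest mean over all 8 libraries, RNU4-1. RNU4-2 (chr12:120729566-120729706, minus strand, hg19) had 264, 317, 358 and 222 RPKM in E2+DHT and 422, 220.2, 254 and 293 RPKM in E2. RNU4-1 (chr12:120730900-120731040, same strand) had 119, 151, 172 and 108 RPKM in E2+DHT and 181, 102, 115 and 131 RPKM in E2. In both rows the highest and the lowest library belonged to E2 (replicates 1 and 2), and the E2+DHT values fell between them. RNU4-2 averaged 290.4 ± 59.8 RPKM in E2+DHT and 298 ± 88.4 RPKM in E2 (SD, n = 4 each), a log2 fold change of -0.01 with a 95% interval of -0.47 to 0.44. RNU4-1 averaged 137 ± 29.4 RPKM in E2+DHT and 132 ± 34.6 RPKM in E2, a log2 fold change of 0.06 (-0.36 to 0.49). With 4 libraries a group, changes of the size inside these intervals remain possible. The intervals are not adjusted for the number of genes tested and do not mark what the adjusted test could detect.

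The pair kept a nearly fixed ratio while its level varied. RNU4-2 held 2.22, 2.10, 2.09 and 2.06 times the RPKM of RNU4-1 in E2+DHT and 2.33, 2.16, 2.22 and 2.23 times in E2. The 95% counting intervals of the extremes, 1.85 to 2.30 for E2+DHT replicate 4 and 2.15 to 2.53 for E2 replicate 1, overlapped. The level of RNU4-2 itself differed 1.92-fold between its highest and lowest library. The transcripts, both 141 bases long, were 97.2% identical. Counted from 1 at the 5′ end, with the RNU4-1 base first, they differ by C37T, G88A, C99A and C113T. None of the 100-base windows of either transcript, the length of the sequencing reads, was shared with another small RNA transcript, but how the authors' counting treated reads that fit more than 1 place is not given in the sources used here.

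The U5 RNAs, whose loop contacts both exons during splicing, had 3 rows of moderate to high level and 1 low row. RNU5E-1 (chr1:11968209-11968328) had 98.5, 107, 135 and 89.3 RPKM in E2+DHT and 133, 138, 76.8 and 221 RPKM in E2. RNU5B-1 (chr15:65597015-65597130) had 85.9, 75.2, 106 and 63.0 RPKM in E2+DHT and 109, 88.0, 69.6 and 152 RPKM in E2. In both, E2 replicate 4 was the highest library. RNU5E-1 was lowest in E2 replicate 3 and RNU5B-1 in E2+DHT replicate 4, so the groups overlapped. RNU5E-1 averaged 107 ± 19.9 RPKM in E2+DHT and 142 ± 59.4 RPKM in E2 (SD, n = 4 each), with a log2 fold change of -0.32 (-0.91 to 0.26). RNU5B-1 averaged 82.5 ± 18.2 RPKM in E2+DHT and 105 ± 35.6 RPKM in E2, with a log2 fold change of -0.31 (-0.81 to 0.20). The adjusted p was 0.999 in limma for both.

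RNU5D-1 (chr1:45196727-45196842) had 19.9, 15.8, 25.5 and 10.00 RPKM in E2+DHT and 21.6, 21.3, 13.8 and 23.6 RPKM in E2. Its highest and lowest libraries were both E2+DHT, replicates 3 and 4, and its log2 fold change was -0.22 (-0.78 to 0.35). RNU5E-4P, named as a pseudogene of the family, starts 1537 bases beyond the end of RNU5E-1 on the opposite strand. It had 2.65, 2.98, 5.32 and 3.92 RPKM in E2+DHT and 2.35, 4.91, 4.18 and 10.6 RPKM in E2, from 7 to 26 reads per library. E2 held both its highest and its lowest library, and its log2 fold change was -0.38 (-1.15 to 0.40). The row of RNU5A-1, listed at 0, lies inside another row of the table.

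The U2 family, which marks the branch point, was represented by 3 rows named as pseudogenes. RNU2-61P (chr6:89773219-89773409) had 46.9, 42.2, 50.9 and 51.5 RPKM in E2+DHT and 48.7, 81.8, 34.9 and 94.9 RPKM in E2. The 4 E2+DHT libraries lay close together, between the E2 extremes, and E2 replicate 1, at 48.7 RPKM, lay among them. Their SD was 4.30 RPKM, or 8.98% of a mean of 47.9, while the E2 libraries had an SD of 28.0 RPKM, or 43.0% of a mean of 65.1. This difference in spread was not tested. The log2 fold change was -0.33 (-0.92 to 0.25, adjusted p = 0.999 in limma). RNU2-61P and RNU2-64P were each 87.4% and RNU2-63P 76.3% identical to RNU2-2P, which was listed at 0 and shares 8.70% of its 100-base windows with another small RNA transcript.

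RNU2-64P (chr3:73160143-73160333) had 1.06, 1.07, 1.67 and 0.164 RPKM in E2+DHT and 1.31, 1.85, 1.05 and 2.56 RPKM in E2. RNU2-63P (chr2:88315873-88316066) had 1.04, 1.32, 1.20 and 0.323 RPKM in E2+DHT and 0.485, 1.42, 1.55 and 1.76 RPKM in E2. Both were lowest in E2+DHT replicate 4, with 1 read and 2 reads, and highest in E2 replicate 4, with 10 and 7 reads. Their log2 fold changes were -0.63 (-1.36 to 0.11) and -0.29 (-0.95 to 0.37). With RNVU1-19, at 0.292 RPKM in its lowest library, they had the lowest minimum RPKM of the set. RNVU1-13 and U3_55 also had 2 reads in their lowest library. Just outside it were SCARNA7, with a mean of 0.276 RPKM, and U3_61, with a mean of 0.176 RPKM, each above 0 in 7 libraries.

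The U1 family, which recognises the 5′ splice site, was represented by 4 variant U1 rows and the pseudogene RNU1-120P, all on chromosome 1. RNVU1-14 (chr1:148241465-148241628), the highest, had 5.99, 10.9, 12.6 and 10.5 RPKM in E2+DHT and 8.41, 12.7, 12.2 and 14.0 RPKM in E2. Its lowest value was E2+DHT replicate 1 and its highest E2 replicate 4, with overlap between the groups and a log2 fold change of -0.26 (-0.73 to 0.22). RNVU1-6 (chr1:145382757-145382920) had 2.82, 3.42, 1.06 and 1.72 RPKM in E2+DHT and 1.72, 0.957, 1.53 and 0.893 RPKM in E2. It had the largest positive fold change of the 17 rows, 0.58 (-0.02 to 1.17, unadjusted p = 0.058, adjusted p = 0.999 in limma), on 3 to 16 reads per library. E2+DHT replicate 3 fell within the E2 values.

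RNVU1-19 (chr1:149514090-149514256) had 2.08, 0.611, 2.08 and 1.501 RPKM in E2+DHT and 1.501, 0.940, 1.500 and 0.292 RPKM in E2, on 1 to 12 reads. The log2 fold changes of RNVU1-19, RNVU1-13 and RNU1-120P were 0.42, 0.17 and 0.03, and all 3 intervals included 0. RNVU1-13 ranged from 0.688 to 1.90 RPKM in E2+DHT and from 0.373 to 1.74 RPKM in E2. RNU1-120P ranged from 1.11 to 2.21 RPKM in E2+DHT and from 1.24 to 2.59 RPKM in E2. Summed over the family, U1 rows had 16.9 ± 2.25 RPKM in E2+DHT and 17.02 ± 1.67 RPKM in E2 (SD, n = 4 each). The U4 rows summed to 428 ± 89.0 RPKM in E2+DHT and 429.9 ± 123 RPKM in E2, the U5 rows to 211 ± 44.1 RPKM in E2+DHT and 272 ± 101 RPKM in E2, and the U2 rows to 49.8 ± 4.01 RPKM in E2+DHT and 68.1 ± 28.9 RPKM in E2. In all 4 families the difference between the group means was smaller than the larger SD. For the U5 and U2 rows it was larger than the smaller SD, that of E2+DHT. The sums were not tested. RNVU1-14 was 90.9%, RNVU1-6 90.9% and RNU1-120P 72.5% identical to RNU1-1. None of these 3 shared a 100-base window with another small RNA transcript. How the authors' counting divided reads among U1 copies is not given in the sources used here, so the separate levels are uncertain.

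U6atac, the catalytic RNA of the minor spliceosome, had the smallest spread of the set, with a residual SD of 0.27. RNU6ATAC (chr9:137029561-137029686) had 18.1, 20.2, 26.9 and 15.2 RPKM in E2+DHT and 21.9, 20.2, 18.3 and 24.0 RPKM in E2. E2+DHT held both extremes. Its mean was 20.1 ± 5.00 RPKM in E2+DHT and 21.1 ± 2.44 RPKM in E2 (SD, n = 4 each), and its log2 fold change was -0.09 (-0.43 to 0.25). The other minor spliceosomal RNAs U11 and U12 are filed as lincRNA and so stand outside the set. RNU11 had 20.05, 19.4, 29.4 and 22.2 RPKM in E2+DHT and 19.9, 27.8, 21.3 and 23.3 RPKM in E2, a level close to that of RNU6ATAC. RNU12 had 18.6, 14.1, 17.8 and 14.3 RPKM in E2+DHT and 23.8, 20.7, 12.1 and 19.3 RPKM in E2. RNU4ATAC and RNU7-1, the U7 RNA of histone mRNA processing, were listed at 0.

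**Figure D2:**
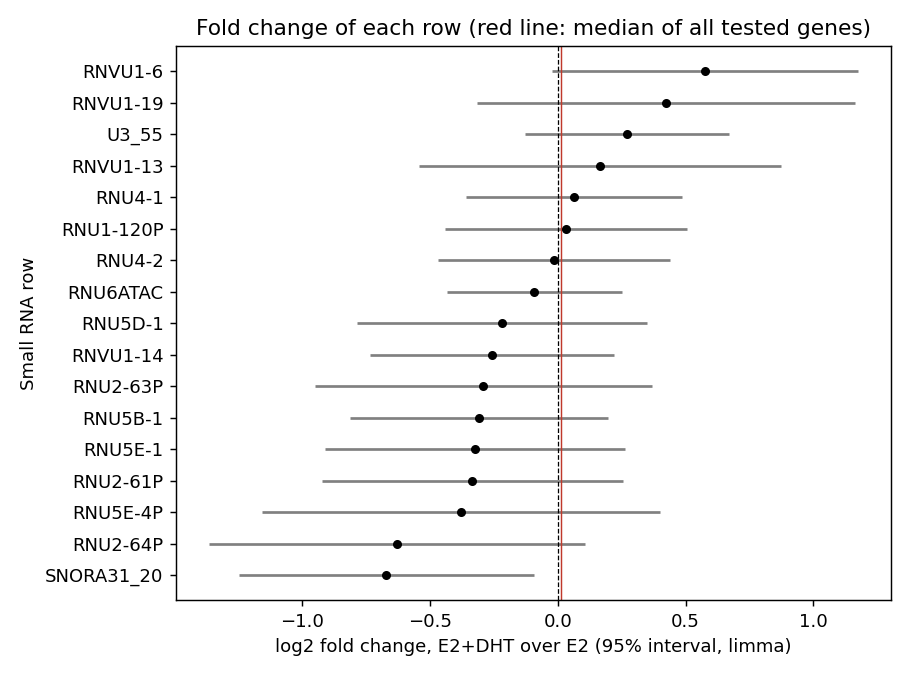
Log2 fold change, E2+DHT over E2, of each row on the log2(RPKM + 0.5) scale, with its 95% interval from limma; the red line is the median of all tested genes, 0.01. The interval of SNORA31_20 alone lies off 0, before adjustment for the number of genes tested.

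SNORA31_20, an H/ACA box row, had the lowest p of the set without passing the threshold. It had 7.55, 11.0, 13.6 and 8.42 RPKM in E2+DHT and 24.1, 9.67, 19.4 and 14.6 RPKM in E2, from 29 to 103 reads per library. The lowest E2 library, replicate 2, lay below 2 of the E2+DHT libraries, and the other 3 E2 libraries lay above all 4. It averaged 10.2 ± 2.75 RPKM in E2+DHT and 16.9 ± 6.21 RPKM in E2 (SD, n = 4 each). The log2 fold change was -0.67 (-1.25 to -0.09), with an unadjusted p of 0.027 and an adjusted p of 0.985 in limma. The row (chr13:45910449-45910582, minus strand) lies outside any other row, 426 bases from TPT1, a highly expressed gene on the same strand with a mean of 341 RPKM. Whether reads of unspliced or extended TPT1 transcripts entered the row was not tested.

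U3_55 (chr14:64118015-64118217), a row of the U3 family, was the lowest of the set by mean level. It had 0.427, 1.26, 0.857 and 0.926 RPKM in E2+DHT and 0.463, 0.773, 0.741 and 0.481 RPKM in E2, on 2 to 6 reads per library. Its extremes were both E2+DHT libraries, and its log2 fold change was 0.27 (-0.13 to 0.67). The U3 RNA itself is filed as lincRNA under SNORD3A, with 4979, 5109, 4499 and 2166 RPKM in E2+DHT and 11558, 1172, 7824 and 3462 RPKM in E2. The E2 libraries thus held the highest and the lowest SNORD3A values, with all E2+DHT values between them. Its log2 fold change was -0.14 (-1.50 to 1.22), and its residual SD of 1.11 exceeded that of 99.96% of tested genes.

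The spread between libraries was wide for the small RNAs in general. Their residual SD on the log2 scale had a median of 0.47, against 0.13 over all tested genes, and single rows stood between the 92.4th (RNU6ATAC) and the 99.8th (RNU5E-4P) percentile. In both groups 13 of the 17 rows had an SD, as a percentage of the mean, above the counting error expected from their mean reads. Of the 9 rows with at least 10 reads in every library, 8 did so. The excess was not tested, and it was small for some rows with few reads. RNU2-63P had 45.9% against 42.6% in E2+DHT and 43.3% against 41.7% in E2. For RNU4-2 the SD was 20.6% of the mean in E2+DHT and 29.7% in E2, against counting errors of 2.86% and 3.07%. For RNU2-64P it was 62.7% in E2+DHT and 39.4% in E2, against counting errors of 41.7% and 35.9%. For U3_55 it was 39.4% in E2+DHT and 26.9% in E2, against counting errors of 44.7% and 57.7%.

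**Figure D3:**
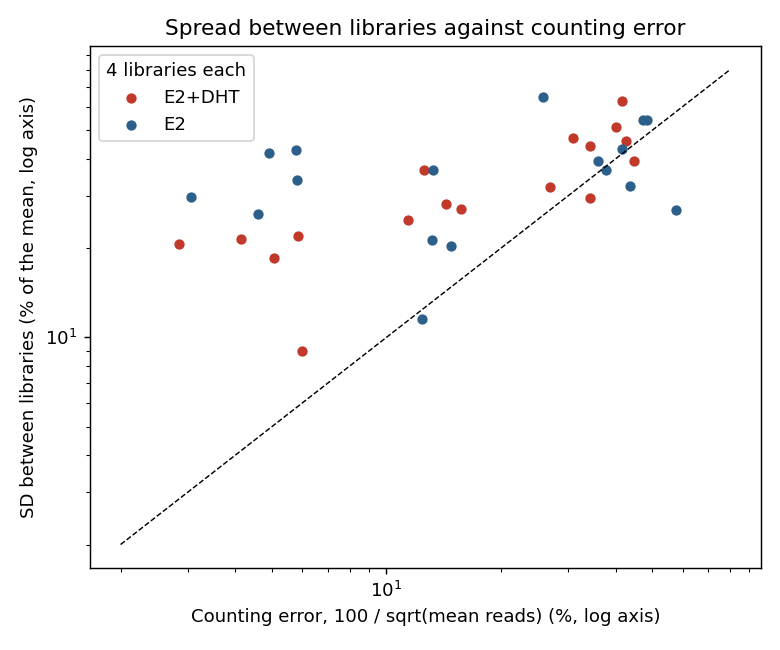
SD between the 4 libraries of a group, as a percentage of the mean, against the counting error expected from the mean number of reads (both log axes; 1 point per row and group, E2+DHT in red and E2 in blue; the dashed line marks equality). Rows with many reads, on the left, lie well above the line, and those with few reads, on the right, lie nearer to it, on both sides.

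The rows did not all move with the same libraries. E2 replicate 4 was the highest library for 7 of the 17 rows, among them RNU5E-1, RNU5B-1, RNU5E-4P and all 3 U2 rows. E2+DHT replicate 4 was the lowest for 5. E2 replicate 1 was the highest for 4, both U4 rows, RNU1-120P and SNORA31_20. As a result, ratios between families changed from library to library. RNU4-2 had 3.08, 4.21, 3.39 and 3.52 times the RPKM of RNU5B-1 in E2+DHT and 3.89, 2.50, 3.66 and 1.92 times in E2. The 95% counting interval in E2 replicate 4, 1.70 to 2.17, lay below that of every other library, the nearest being E2 replicate 2, at 2.18 to 2.88. RNU5E-1 had 1.10 to 1.57 times the RPKM of RNU5B-1 over the 8 libraries, a narrower range. Among other short non-polyadenylated RNAs, the summed RPKM of 14 rows, most of it from RN7SK and RN7SL2, was lowest in E2 replicate 2, at 101231, and highest in E2 replicate 1, at 188363. Single rows differed, and RNY1 had 281 RPKM in E2 replicate 2 and 189 RPKM in E2 replicate 1. SCARNA2 followed the same extremes, at 81.6 RPKM in E2 replicate 2 and 225 RPKM in E2 replicate 1. What these libraries share was not tested.

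**Figure D4:**
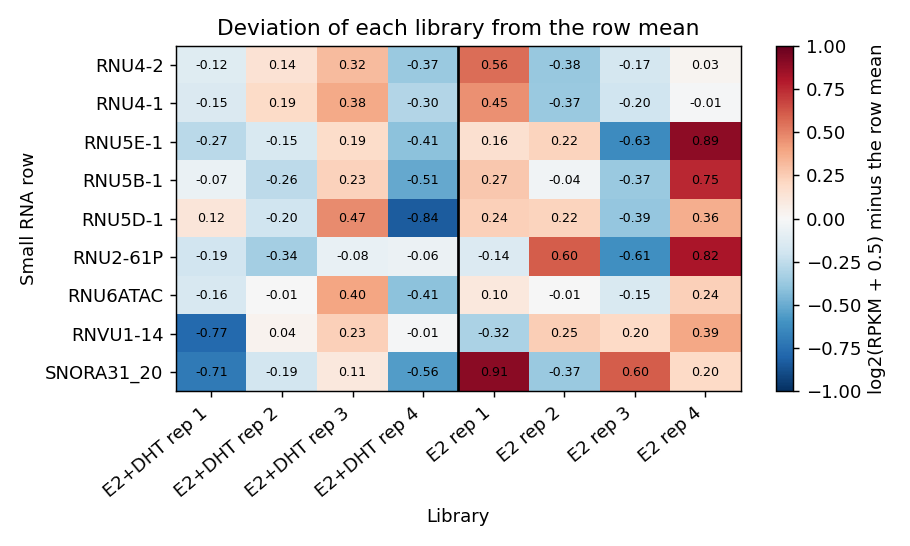
Deviation of each library from the row mean, as log2(RPKM + 0.5), for the 9 rows with at least 10 reads in every library; E2+DHT replicates are left of the black line and E2 replicates right of it. E2 replicate 4 is high in the U5 rows and RNU2-61P (0.89 for RNU5E-1), and E2 replicate 1 is high in the U4 rows and SNORA31_20 (0.91).

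Most snRNA and snoRNA rows were listed at 0. Of the 3373 rows, 3312 (98.2%) were at 0 in all 8 libraries and 44 were above 0 in 1 to 7. The zeros included RNAs that every human cell uses, so that a 0 here says only that the row was listed at 0. Of 18 rows of canonical major spliceosomal RNAs, 5 were above 0 in all libraries, RNU4-2, RNU4-1, RNU5E-1, RNU5B-1 and RNU5D-1, and 13 were at 0. Those at 0 included RNU1-1, RNU1-2, RNU1-3, RNU1-4, RNVU1-18, RNU2-2P, RNU5A-1, RNU5F-1 and the U6 rows RNU6-1, RNU6-2, RNU6-7, RNU6-8 and RNU6-9. Of 14 rows matched by symbol to a list of snoRNAs for maturation of ribosomal RNA, 8 were at 0. Among them were SNORD118 (U8), SNORD13, the SNORD14 (U14) rows and a row named SNORD22 at chr13:94021100-94021213. SNORA73B was above 0 in 5 libraries, and the remaining 5 were the SNORD3 rows.

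Length, place and uniqueness of the rows are given here for rows with and without values. The 17 rows had a median span of 157 bases and spanned at most 203, and 0 of the 509 rows of 80 bases or fewer had a value in any library. None of the 17 lay inside another row of the table on either strand, while 2085 of the 3312 rows at 0 (63.0%) did. By this measure none had a host gene in the table, and no comparison with host genes could be made. Rows were then grouped by span, with 1 limit at the shortest of the 17 rows. Among rows of 161 to 330 bases, 21 of 123 outside other rows and 10 of 125 inside them had a value in at least 1 library. Among rows from that limit up to 160 bases the counts were 18 of 221 outside and 6 of 401 inside. Of the transcripts outside other rows, 34 shared every 100-base window with another small RNA transcript, and 0 of these had a value, against 36 of 764 that shared none. Of those inside other rows, 1 of 45 that shared every window had a value, against 16 of 1133 that shared none. All windows of RNU1-1 to RNU1-4, RNVU1-18 and the 5 U6 rows were shared, while RNU4ATAC, SNORD118 and SNORD13, among others listed at 0, shared none. The 14 members with a sequence shared none. The part of fragment length, multiply mapped reads and overlapping rows in these zeros was not tested.

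**Figure D5:**
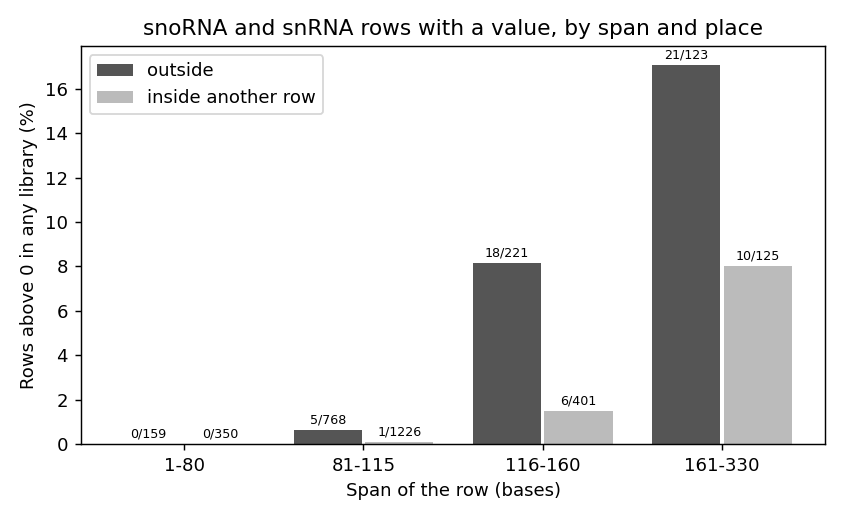
Share of snRNA and snoRNA rows above 0 in at least 1 library (%), by the span of the row in bases and by whether it lies outside (dark) or inside another row of the table (light); the numbers over the bars are rows above 0 of all rows. The share is 0 up to 80 bases and highest, at 17.1%, for rows of 161 to 330 bases outside other rows.

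The mRNAs for proteins that build and carry these RNAs were measured in the same libraries. None of the 22 snoRNP core and assembly genes tested passed the threshold, with a median log2 fold change of -0.01 and 10 positive. Among them FBL, the methyltransferase of C/D box particles, had a fold change of 0.15, NHP2L1, a shared U4 and C/D box protein, 0.16, GAR1, an H/ACA core protein, -0.18, and the assembly factor PIH1D1 0.18 (adjusted p = 0.999 in limma for each). Of the 37 snRNP protein genes 0 passed, with a median of -0.01 and 18 positive. The lowest p belonged to GEMIN7, a protein of the SMN complex, and SNRPA, a protein of the U1 particle. Their log2 fold changes were 0.21 and 0.11. Of the 26 genes for transcription and 3′ end formation of small RNAs 0 passed, with a median of 0.01 and 14 positive. In that list INTS12, a subunit of the Integrator complex that cleaves nascent snRNAs, was the only gene whose groups did not overlap, lower in E2+DHT by a log2 fold change of -0.20 (adjusted p = 0.999), and 1 of 26 is close to the 3.4% of all tested genes. SNAPC2, of the snRNA promoter complex, had 0.24 and BRF2, an RNA polymerase III factor for U6-type promoters, 0.19. The median over all tested genes was 0.01. Of the 11 other short non-polyadenylated RNAs tested 0 passed, with 8 positive and a median of 0.05.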

How the data were processed

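Total RNA from ZR-75-1 cells (4 E2+DHT and 4 E2 libraries) was made into stranded libraries and read as 100-base paired ends, per the labels' protocols. The authors deposited RPKM values in a single table; the build was hg19, per the submitters' processing notes. Not given in the sources used here are aligner, counter, strand setting and annotation release. Whole reads were recovered for 100% of the 27594 rows with a value (tolerance 1e-04 reads); intervals on reads are 95% and cover counting error only. Genes with a mean RPKM of at least 0.5 were tested as log2(RPKM + 0.5) with limma 3.58.1 in R 4.3.3 (intensity trend, two-sided, all 8 libraries, no replicate block); this scale understates changes of low rows. The script was tested on simulated data. Tables, sequences and plots used Biopython 1.88, matplotlib 3.10.9, SciPy 1.17.1, NumPy 2.4.6 and pandas 2.3.3 in Python 3.11.15. The members and lists were chosen with earlier results of these data known. Some sequences are not reported here. Every member is described; of other genes those named were members of the RNA lists, the rows nearest the condition, and up to 4 genes per protein list by smallest p. Replicate numbers were not taken as pairs. Alternatives varied pseudocount, filter, scaling, test, labels and libraries.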

Additional observations from a re-analysis of the deposited data

How the results depend on the processing

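No member passed 0.05 in the main test or in any of 333 fits of single members under its alternatives. The lowest adjusted p of these 333 fits was 0.24 in limma, and 32 of them changed sign. By record titles, the summed RPKM of FKBP5, C1orf116, CLDN8 and UGDH was 15.0, 45.0, 13.8 and 42.0 in the E2 group. In the E2+DHT group by titles it was 13.1, 35.0, 14.1 and 37.3, so each title group held both high and low libraries. Grouping by record titles moved the median of the members to 0.035, of the RNU members to 0.022 and of SNORA31_20 to 0.18. It also turned the fold changes of RNVU1-14 (0.40), RNU1-120P (-0.19), RNVU1-6 (-0.53), RNVU1-19 (-0.0021), RNU2-61P (0.035), RNU2-63P (0.074), RNU4-1 (-0.065), RNU5E-1 (0.022), RNU5B-1 (0.049), RNU5E-4P (0.75) and RNU6ATAC (0.036). With the 4 records on which both labels match, 2 of 17 members did not overlap between groups of 2, where 25.3% of all tested genes did not, and the sign turned for RNVU1-14 (0.15), RNU1-120P (-0.16), RNU4-1 (-0.001) and RNU5E-4P (0.37). Scaling to the same RPKM sum turned RNU1-120P (-0.023) and RNU4-1 (-0.014), and voom on recovered reads turned RNU1-120P (-0.030). Over all genes, voom called 37 higher and 3 lower, the same RPKM sum 18 and 4, and record titles 2 and 0, against 20 and 1. The causes were not tested.

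Without single libraries the members' median, like that of the RNU members, ranged from -0.36 to -0.03, SNORA31_20 from -0.91 to -0.48, and non-overlapping members from 0 to 1 (4.4% to 8.88% of all tested genes). Members under an unadjusted 0.05 numbered 0 to 3, with 0 without E2+DHT replicate 4. Of all 11375 tested genes, the fewest were under 0.05 without E2 replicate 4, 233 higher and 127 lower in E2+DHT. The most were under it without E2 replicate 1, 650 higher and 317 lower. The sign turned in some of these fits for RNU1-120P (-0.076 to 0.20), RNVU1-13 (-0.10 to 0.36), RNU4-2 (-0.14 to 0.17), RNU4-1 (-0.051 to 0.23), RNU5D-1 (-0.41 to 0.025) and RNU6ATAC (-0.24 to 0.030). Without a change of sign, RNU5E-4P ranged from -0.68 to -0.02, RNU2-63P from -0.56 to -0.03, RNVU1-14 from -0.41 to -0.04, RNU5E-1 from -0.59 to -0.08, RNU5B-1 from -0.48 to -0.11, RNU2-61P from -0.59 to -0.12, RNU2-64P from -0.85 to -0.28, RNVU1-6 from 0.38 to 0.82, RNVU1-19 from 0.13 to 0.70 and U3_55 from 0.14 to 0.44. The median was nearest 0, at -0.03, without E2+DHT replicate 4.

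With a replicate block, 72 genes passed in place of 21, 0 of them members (lowest adjusted p = 0.33 in limma), and the median stayed at -0.22. Under an unadjusted 0.05 there were 4 members in place of 1, 2 higher and 2 lower. Of all 11375 tested genes, 626 were higher and 273 lower at that level, against 327 and 181 in the main fit. Same-numbered libraries of E2+DHT and E2 had correlations of deviations of 0.70, 0.45, 0.12 and 0.083. E2+DHT replicate 3 correlated best with E2 replicate 4 (0.22), and E2 replicate 4 with E2+DHT replicate 2 (0.33). The other libraries correlated best with their own number, E2 replicate 3 only narrowly. Scaling to reads outside the mitochondrial chromosome, chosen after seeing the data, gave a median of -0.25. SNORD and SCARNA medians could not be given, as these classes had no member. Depth limits the 8 rows with under 10 reads in some library.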
